A study of Mus musculus with 30 samples.

Results

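Mouse peritoneal macrophages exposed to MePipHCA, a synthetic mimetic of desmosterol, were compared with the same kind of cells exposed to T0901317, a synthetic agonist of the liver X receptors (LXR). Both ligands were given at 1 uM, and the comparison rests on 6 of the 30 libraries of the series, 3 per ligand, chosen by the treatment in their labels. The macrophages had been elicited with thioglycollate and were kept in RPMI with 10% serum. Before exposure, both groups spent 24 h in medium whose 10% serum was deficient in lipid, with mevastatin, a statin, at 10 uM and mevalonate at 50 uM. They stayed in lipid-deficient medium for the 18 to 20 h of exposure. The 3 vehicle libraries (DMSO or ethanol) had the same pretreatment and are given below as a level for orientation. The other macrophage groups received DMHCA or GW3965 at 1 uM or desmosterol at 10 uM. Nothing in the labels tells whether the 3 libraries of a group are separate animals, cultures or preparations, and the p-values therefore reflect the spread of these libraries only, part of which may be technical.

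LXR alpha and beta are nuclear receptors that sense oxidised sterols and intermediates of cholesterol synthesis. In macrophages they switch on the exporters Abca1 and Abcg1, which move cholesterol to apolipoprotein particles, and the transcription factor gene Srebf1, whose product SREBP-1c drives fatty acid synthesis. SREBP-2 is controlled differently. It is held in the endoplasmic reticulum by SCAP and the INSIG proteins when sterols are plentiful, and is released to the nucleus, where it switches on cholesterol synthesis and uptake, when they are scarce. Desmosterol is the last precursor of cholesterol in one branch of synthesis and both activates LXR and restrains SREBP processing. The comparison asks how far a ligand of that kind differs from a direct LXR agonist when the exporters Abca1 and Abcg1 are at nearly the same level. Other LXR targets, Srebf1 among them, were not at equal levels.

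Polyadenylated RNA was sequenced, and exon counts per library came to 4.24 to 6.802 M in MePipHCA cells, 4.01 to 11.5 M in T0901317 cells and 10.5 to 15.7 M in vehicle cells. Levels are given in CPM, counts relative to the TMM-scaled library total in M, and differences as the log2 ratio of MePipHCA to T0901317 with its standard error from the fit. A gene was called higher or lower in MePipHCA cells at an adjusted p under 0.05 in edgeR's quasi-likelihood test, with Benjamini-Hochberg adjustment over all genes tested, which also gave every adjusted p below. The summed level of 8 macrophage markers, among them Lyz2, Cd68 and Csf1r, was 13098 to 13335 CPM in MePipHCA libraries, 14859 to 15539 CPM in T0901317 libraries and 16325 to 16429 CPM in vehicle libraries. Adgre1 was not analysed here. Lyz2, Csf1r, Itgam, Mertk and Fcgr1 were lower in MePipHCA cells and Cd68, Cd14 and Spi1 did not pass the test. Markers of fibroblasts and other stromal cells differed more. Their summed level over 7 genes was 80.1 to 97.2 CPM in MePipHCA libraries, 258 to 338 CPM in T0901317 libraries and 244 to 309 CPM in vehicle libraries. In such bulk samples, fewer cells of a type and less RNA per cell cannot be told apart.

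The cholesterol exporters were at nearly equal levels under both ligands. Abca1, which loads cholesterol and phospholipid onto apolipoprotein A-I, had 2752, 2869 and 2785 CPM in MePipHCA cells, 3142, 2997 and 3099 CPM in T0901317 cells and 139.9, 161 and 159 CPM in vehicle cells. The 3 MePipHCA libraries all lay below the 3 T0901317 libraries, by a small margin (log2 change -0.14 ± 0.05 (SE), adjusted p = 0.0224, 1.099-fold lower). This call was lost without MePipHCA replicate 1, MePipHCA replicate 3, T0901317 replicate 1 or T0901317 replicate 3, with adjusted p = 0.0921, 0.0899, 0.0997 and 0.0652 in edgeR, and the range over all alternatives was 0.00113 to 0.0997. Abcg1, the exporter to high-density lipoprotein, had 1767, 1702 and 1713 CPM in MePipHCA cells, 1718, 1822 and 1754 CPM in T0901317 cells and 229, 251 and 252 CPM in vehicle cells. Its libraries overlapped between the ligands, and the difference of -0.031 ± 0.05 did not pass the test (adjusted p = 0.68). The 95% interval of the difference ran from -0.12 to 0.061 on the log2 scale. Mylip, which encodes the ubiquitin ligase IDOL, had 157, 161 and 158 CPM in MePipHCA cells and 175, 187 and 186 CPM in T0901317 cells. The groups did not overlap and the level was 1.15-fold lower with MePipHCA (log2 change -0.21 ± 0.06 (SE), adjusted p = 0.00493).

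Across the transcriptome the ligands differed widely. Of 11544 genes tested, 1390 were higher in MePipHCA cells (12%) and 1605 were lower (13.9%). The macrophage counts of gene lists below are to be read against these shares. At 2-fold or more the balance was uneven, with 94 genes higher (0.814%) and 562 lower (4.87%). The middle 50% of log2 changes lay between -0.22 and 0.18, and the median over all genes was 0.00073. The libraries of the ligands did not overlap for 37.8% of all genes tested. By mean level, 43.4% were called in the top 25% of genes, 24.1% and 17.1% in the next 25% and the 25% after it, and 19.2% in the bottom 25%. That bottom 25%, with mean levels of at most 7.38 CPM, held 408 of the 562 genes that were lower by at least 2-fold.

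**Figure D1:**
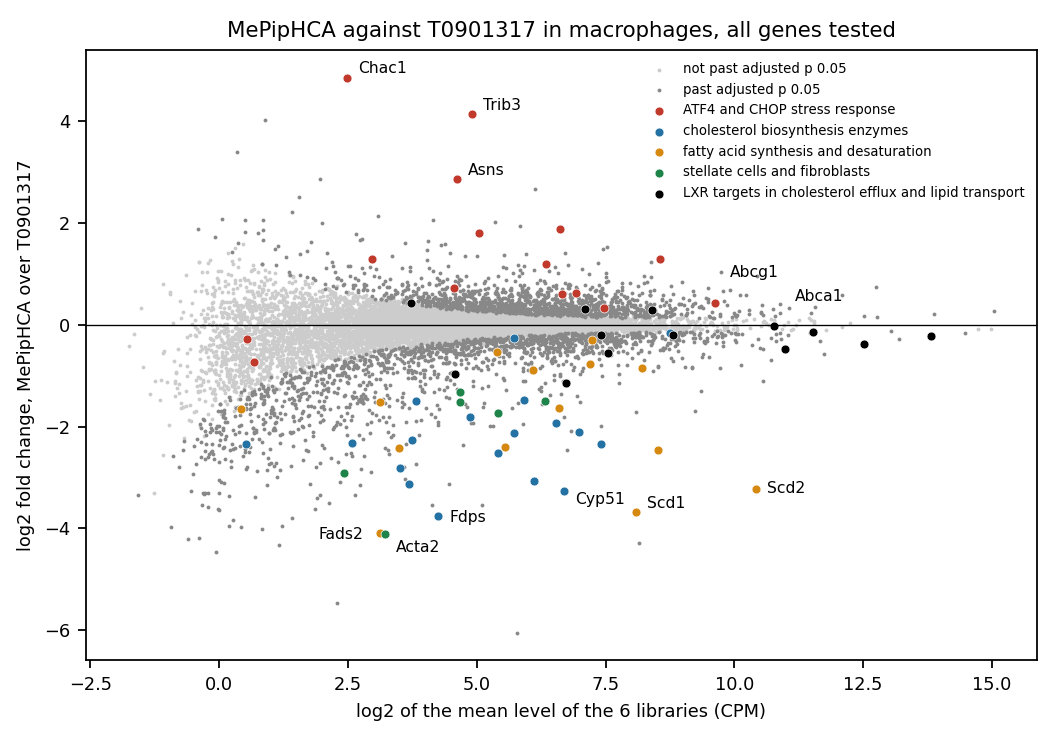
Log2 change of MePipHCA over T0901317 for each gene against the log2 of its mean level over the 6 libraries in CPM. Grey dots are all genes tested (dark past the threshold), colours mark 5 gene lists, and genes with 0 counts under one ligand are left out. The exporters Abca1 and Abcg1 lie near 0, cholesterol and fatty acid synthesis genes below 0, and most ATF4 and CHOP genes above 0.

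Across the list of LXR targets, which includes Abca1, Abcg1 and Mylip, small to moderate reductions prevailed. Of 13 tested LXR targets of cholesterol efflux and lipid handling, 9 were lower in MePipHCA cells, Abca1 and Mylip among them. In the other direction 2 were higher, and 2, Abcg1 and Apoc2, did not pass. The median log2 change was -0.21. The 3 remaining entries, Apoc1, Abcg5 and Abcg8, fell below the filter on low counts. Lpcat3, an acyltransferase that places polyunsaturated fatty acids into phospholipids, had 59.6, 62.97 and 73.9 CPM in MePipHCA cells, 155, 140.1 and 146 CPM in T0901317 cells and 39.03, 43.1 and 42.96 CPM in vehicle cells. It was 2.22-fold lower with MePipHCA (log2 change -1.15 ± 0.08 (SE), adjusted p = 1.06e-15), and it overlaps Emg1 on the opposite strand, whose reads may be counted with it. Pltp, a phospholipid transfer protein gene, had 1736, 1681 and 1667 CPM with MePipHCA and 2285, 2511 and 2279.9 CPM with T0901317, 1.39-fold lower (log2 change -0.48 ± 0.05 (SE), adjusted p = 1.45e-09). It overlaps Ctsa on the opposite strand. Cd5l, which encodes a secreted macrophage protein, had 149, 150.00 and 158 CPM in MePipHCA cells and 214, 232 and 223 CPM in T0901317 cells (log2 change -0.55 ± 0.07 (SE), adjusted p = 7.54e-08). Vehicle cells had 48.3, 50.1 and 46.8 CPM, below both. Abca9, also counted among the lower genes of the list, had the opposite place against vehicle. It had 15.2, 14.2 and 18.6 CPM with MePipHCA, 33.97, 28.1 and 32.9 CPM with T0901317 and 39.8, 40.9 and 34.4 CPM with vehicle, above both (log2 change -0.97 ± 0.12 (SE), adjusted p = 4.1e-08). Apoe, the main apolipoprotein of macrophages, and Lpl, lipoprotein lipase, were also lower, with log2 changes of -0.22 ± 0.05 and -0.38 ± 0.04. In the other direction, Arl4c, a small GTPase gene, had 156, 153 and 151 CPM in MePipHCA cells, 129, 116 and 123 CPM in T0901317 cells and 24.1, 21.9 and 23.1 CPM in vehicle cells (log2 change 0.32 ± 0.06 (SE), adjusted p = 0.000126). Smpdl3a was higher as well, at 0.29 ± 0.06, but its place against vehicle was another. It averaged 370 CPM with MePipHCA, 304 CPM with T0901317 and 350 CPM with vehicle, so that MePipHCA lay near vehicle and T0901317 below it.

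Srebf1 and the fatty acid synthesis genes were far lower with MePipHCA. All 14 tested members of the fatty acid synthesis and desaturation list were lower, 9 of them by at least 2-fold, with a median log2 change of -1.64. The 5 others, Acacb, Elovl7, Mlxipl, Thrsp and Pnpla3, were below the count filter. Srebf1 itself had 129.9, 131 and 123 CPM in MePipHCA cells, 399, 451 and 411 CPM in T0901317 cells and 62.2, 74.04 and 70.6 CPM in vehicle cells, 3.28-fold lower with MePipHCA (log2 change -1.71 ± 0.06 (SE), adjusted p = 1.2e-24). MePipHCA cells thus lay above vehicle but far below T0901317. Reads of Rai1, on the opposite strand at the same locus, may be counted with it. Scd1 (chr19:44394450-44407709 on mm10, minus strand), the desaturase that makes oleic acid, had 38.98, 38.4 and 41.2 CPM with MePipHCA, 499, 484 and 541 CPM with T0901317 and 20.2, 23.5 and 22.6 CPM with vehicle. The difference was 12.8-fold (log2 change -3.68 ± 0.07 (SE), adjusted p = 9.8e-34). Its neighbour Scd2, another desaturase gene of the family, had 275, 247 and 268 CPM with MePipHCA and 2443, 2441 and 2528 CPM with T0901317 (log2 change -3.23 ± 0.06 (SE), adjusted p = 2.5e-34). Fasn, fatty acid synthase, showed another position relative to vehicle. It had 122, 109.7 and 106 CPM with MePipHCA, 611, 637 and 612 CPM with T0901317 and 102, 124 and 113 CPM with vehicle, so that MePipHCA and vehicle libraries overlapped while T0901317 stood apart (log2 change -2.46 ± 0.07 (SE), adjusted p = 3.1e-28). Fads2, a desaturase of polyunsaturated fatty acids, had 1.299, 0.236 and 1.17 CPM with MePipHCA, 17.4, 16.8 and 15.6 CPM with T0901317 and 5.81, 9.81 and 9.54 CPM with vehicle, 16.9-fold lower (log2 change -4.08 ± 0.34 (SE), adjusted p = 7.91e-13). Here MePipHCA lay below vehicle and T0901317 above it. Fads1 and Elovl6, a desaturase and an elongase gene, were lower by -1.63 and -2.43 on the log2 scale. Acsl3, an acyl-CoA synthetase gene, was lower by -2.41, and Utp14b, which shares its locus and strand and whose reads may be split with it, by -2.74.

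The list with the largest median reduction among the 21 pathway lists was cholesterol biosynthesis. All 18 enzymes listed were tested and lower in MePipHCA cells, 16 by at least 2-fold, with a median log2 change of -2.29. Fdps, farnesyl diphosphate synthase, had 1.299, 3.77 and 2.64 CPM with MePipHCA and 32.2, 44.1 and 30.2 CPM with T0901317, 13.5-fold lower (log2 change -3.75 ± 0.20 (SE), adjusted p = 6.27e-19). Cyp51, lanosterol demethylase, had 22.5, 19.8 and 16.9 CPM with MePipHCA, 192, 185 and 185 CPM with T0901317 and 196, 191 and 189 CPM with vehicle (log2 change -3.27 ± 0.10 (SE), adjusted p = 1.72e-27). T0901317 and vehicle libraries lay close together in this gene, and the MePipHCA libraries stood far below both. Hsd17b7, which acts on later sterol intermediates, had 2.17, 1.18 and 3.67 CPM with MePipHCA and 22.6, 28.6 and 18.8 CPM with T0901317 (log2 change -3.14 ± 0.24 (SE), adjusted p = 6.25e-14). Sqle, squalene epoxidase, had 14.1, 14.6 and 15.3 CPM with MePipHCA, 124, 123 and 124 CPM with T0901317 and 149, 149.9 and 144 CPM with vehicle (log2 change -3.07 ± 0.10 (SE), adjusted p = 2.36e-26). The weakest reductions were those of Fdft1 at -0.16 ± 0.05 and Ebp at -0.25 ± 0.09. Fdft1, squalene synthase, had 399.8, 408 and 408 CPM with MePipHCA and 467, 441 and 449.97 CPM with T0901317, both above the 341, 334 and 343 CPM of vehicle cells.

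Hmgcs1, the synthase at the entry of the mevalonate pathway, had 53.1, 58.5 and 55.7 CPM in MePipHCA cells, 279, 278 and 293 CPM in T0901317 cells and 369, 351 and 336 CPM in vehicle cells (log2 change -2.35 ± 0.07 (SE), adjusted p = 4.88e-28). Its promoter is shown because it holds the letters of a sterol regulatory element, TCACNCCAC, the kind of site SREBP-2 binds. RefSeq promoter windows on GRCm38.p6 (the assembly named mm10), from 250 bases before to 50 after a gene's start, were searched on both strands; the window below is chr13:119690101-119690400, plus strand, read 5′ to 3′ along the gene, with the match in capitals.
Hmgcs1: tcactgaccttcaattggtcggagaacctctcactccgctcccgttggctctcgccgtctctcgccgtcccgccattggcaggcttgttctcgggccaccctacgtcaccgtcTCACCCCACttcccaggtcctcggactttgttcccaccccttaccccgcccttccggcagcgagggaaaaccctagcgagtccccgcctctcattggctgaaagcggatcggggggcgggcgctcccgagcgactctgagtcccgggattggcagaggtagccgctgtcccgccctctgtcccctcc
The match starts 137 bases before the gene's start. Of the 18 windows of 15 cholesterol enzyme genes in the table, 1 holds the motif (5.56%), against 1.24% of all 32851 windows. The E-box letters CACGTG, which SREBP-1 can also bind, occur in 3 of those 18 windows (16.7%) and in 7.15% of all windows. Of 19 windows of 16 fatty acid synthesis genes, 1 holds the sterol element, that of Mlxipl, 3 hold the E-box (15.8%) and none holds the direct repeat with 4 spacer bases that LXR binds with RXR, which 0.0152% of all windows hold. A match is a description of letters in this window and not evidence of binding.

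Most other SREBP-2 targets were lower, while most regulators of LXR and SREBP did not pass the test. Of 5 other SREBP-2 targets, 4 were lower in MePipHCA cells and 1 was higher, with a median log2 change of -1.48. Stard4, a carrier of cholesterol between membranes, had 3.03, 4.25 and 6.01 CPM with MePipHCA and 37.2, 39.3 and 43.1 CPM with T0901317 (log2 change -3.12 ± 0.17 (SE), adjusted p = 2.61e-18). Tmem97, a sterol-regulated membrane protein gene, Aacs, acetoacetyl-CoA synthetase, and Rdh11, a retinol dehydrogenase gene, were lower by -1.48 ± 0.18, -1.64 ± 0.10 and -0.28 ± 0.11 on the log2 scale, and Npc1, which exports cholesterol from the lysosome, was higher by 0.17 ± 0.05 (adjusted p = 0.00977). Rdh11 (adjusted p = 0.049) lost its call without any 1 of MePipHCA replicates 1, 2 and 3 or T0901317 replicates 2 and 3, with adjusted p of 0.0989, 0.104, 0.117, 0.079 and 0.251 in edgeR, and over all alternatives the value ran from 0.0253 to 0.251. Without MePipHCA replicate 2, 0 genes of this list were called higher. Among 13 regulators of LXR and SREBP, 3 were lower (Srebf1, Srebf2 and Insig1), 1 was higher and 9 did not pass. Their median log2 change was 0.064. Over all genes tested, 13.9% were lower and 12% higher. Srebf2 had 70.4, 62.03 and 71.4 CPM in MePipHCA cells, 272, 288 and 254 CPM in T0901317 cells and 257, 288 and 273 CPM in vehicle cells (log2 change -1.99 ± 0.08 (SE), adjusted p = 4.6e-24). Insig1, which anchors SREBP away from the nucleus and is itself an SREBP target, had 36.4, 26.4 and 35.2 CPM with MePipHCA and 174, 188 and 182 CPM with T0901317 (log2 change -2.46 ± 0.08 (SE), adjusted p = 8.17e-26). The receptor genes Nr1h3 and Nr1h2 differed by 0.092 ± 0.08 and 0.068 ± 0.07 and Scap by 0.018 ± 0.09 on the log2 scale, and none of the 3 passed the test. Insig2, Mbtps1 and Mbtps2, at 0.065 ± 0.12, 0.056 ± 0.08 and 0.23 ± 0.09, did not pass either. The gene called higher was Ncor1, a corepressor, at 0.17 ± 0.06 (adjusted p = 0.0314), which overlaps Ttc19 on the opposite strand. Its call was lost without any 1 of MePipHCA replicates 1, 2 and 3 or T0901317 replicates 1 and 2, with adjusted p of 0.0782, 0.0656, 0.0638, 0.0583 and 0.213 in edgeR, and over all alternatives the value ran up to 0.213.

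**Figure D2:**
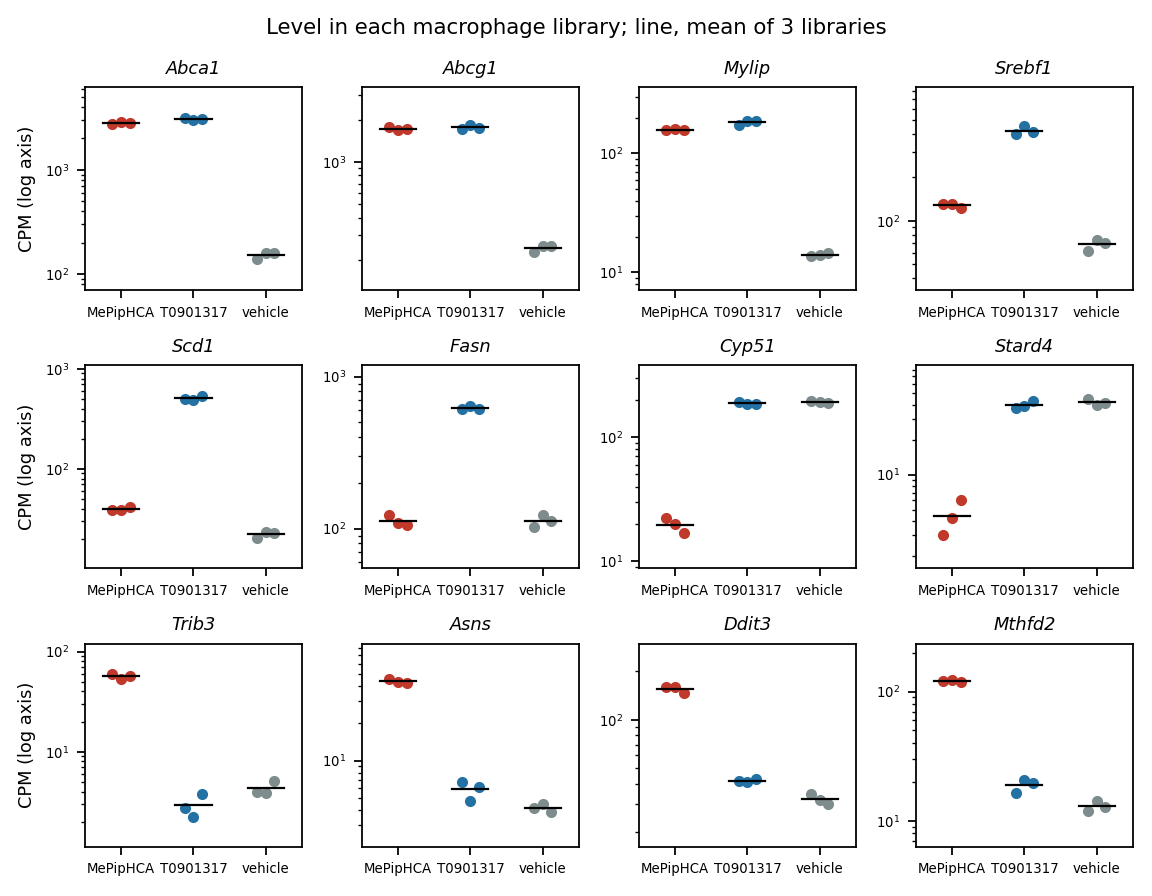
CPM (log axis) of 12 genes in each of 3 MePipHCA, 3 T0901317 and 3 vehicle macrophage libraries, with a line at each group's mean. Abca1 and Abcg1 reach nearly the same level under both ligands; Srebf1, Scd1, Fasn, Cyp51 and Stard4 are lower with MePipHCA, and Trib3, Asns, Ddit3 and Mthfd2 are higher with it.

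Genes of the integrated stress response were higher with MePipHCA. In this response, kinases that sense amino acid shortage, unfolded protein or other stress slow translation and favour the factor ATF4, which with CHOP (encoded by Ddit3) switches on amino acid supply and stress genes. Of 15 tested genes of the ATF4 and CHOP list, 13 were higher in MePipHCA cells, 8 by at least 2-fold, none was lower, and Ddit4 and Vldlr did not pass. The median log2 change was 1.20, and Stc2 and Fgf21 were below the count filter. Chac1, a glutathione-degrading enzyme gene, had 11.04, 8.96 and 12.3 CPM in MePipHCA cells and 0.744, 0.251 and 0.261 CPM in T0901317 cells, and the T0901317 levels rest on 7 counts in all (log2 change 4.85 ± 0.43 (SE), adjusted p = 3.9e-12). Trib3, a pseudokinase gene, had 59.8, 53.5 and 57.3 CPM in MePipHCA cells, 2.73, 2.26 and 3.82 CPM in T0901317 cells and 3.97, 3.87 and 5.15 CPM in vehicle cells. It was 17.6-fold higher with MePipHCA (log2 change 4.13 ± 0.17 (SE), adjusted p = 2.39e-22), and T0901317 libraries lay below vehicle libraries. Asns, asparagine synthetase, had 45.3, 42.7 and 42.1 CPM with MePipHCA, 6.69, 4.76 and 6.17 CPM with T0901317 and 4.15, 4.44 and 3.88 CPM with vehicle, 7.25-fold higher (log2 change 2.86 ± 0.17 (SE), adjusted p = 5.04e-17). Ddit3 had 159, 161 and 147 CPM with MePipHCA, 41.4, 41.1 and 42.7 CPM with T0901317 and 34.4, 31.5 and 29.96 CPM with vehicle (log2 change 1.89 ± 0.09 (SE), adjusted p = 1.18e-20). It overlaps Mars, itself higher by 0.68 ± 0.10 on the log2 scale, on the opposite strand. Without a stated strand option, their reads cannot be told apart. Atf4 had 558, 532 and 514 CPM in MePipHCA cells and 216, 225 and 216 CPM in T0901317 cells (log2 change 1.29 ± 0.06 (SE), adjusted p = 2.51e-20). Sesn2, a regulator of nutrient signalling, was higher by 1.80 ± 0.13 and Ppp1r15a, which restores translation, by 1.20 ± 0.09.

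The promoters of Trib3, Chac1 and Asns are shown because these 3 genes had the largest changes of the list and their windows hold the letters TGATGNAA, the core of the C/EBP-ATF response element that ATF4 binds together with C/EBP factors. The windows on GRCm38.p6 are chr2:152344011-152344310, minus strand, for Trib3, chr2:119350992-119351291, plus strand, for Chac1, and chr6:7693160-7693459, minus strand, for Asns. Each is read 5′ to 3′ along its gene, with the match on either strand in capitals.
Trib3: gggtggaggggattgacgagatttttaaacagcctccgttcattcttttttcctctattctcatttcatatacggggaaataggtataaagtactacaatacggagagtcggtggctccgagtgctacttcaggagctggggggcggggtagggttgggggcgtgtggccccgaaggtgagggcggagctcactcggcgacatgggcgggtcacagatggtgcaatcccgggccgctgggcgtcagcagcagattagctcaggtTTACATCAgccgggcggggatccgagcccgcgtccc
Chac1: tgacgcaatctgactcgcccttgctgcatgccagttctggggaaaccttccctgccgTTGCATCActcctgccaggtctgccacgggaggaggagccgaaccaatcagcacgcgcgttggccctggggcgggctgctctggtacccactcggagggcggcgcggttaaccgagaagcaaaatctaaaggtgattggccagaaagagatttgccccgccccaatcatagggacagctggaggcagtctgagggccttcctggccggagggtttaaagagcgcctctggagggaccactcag
Asns: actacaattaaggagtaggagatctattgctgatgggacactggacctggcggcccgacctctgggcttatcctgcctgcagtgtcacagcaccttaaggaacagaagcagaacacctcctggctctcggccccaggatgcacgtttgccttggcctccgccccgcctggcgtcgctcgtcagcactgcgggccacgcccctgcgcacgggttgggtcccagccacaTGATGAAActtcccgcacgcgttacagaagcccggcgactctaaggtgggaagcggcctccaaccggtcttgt
The match begins 14 bases after the start of Trib3, 193 bases before that of Chac1 and 23 bases before that of Asns, and it reads along the gene in Asns and on the opposite strand in Trib3 and Chac1. Of 19 windows of 17 list genes, 7 hold the core (36.8%), against 3.97% of all windows; the other 4 are those of Atf3, Nupr1, Fgf21 and Vldlr. In the cholesterol enzyme list 1 of 18 windows holds it, that of Idi1, and in the fatty acid list none of 19 does. Vldlr, with the letters, did not pass the test, and Fgf21 was not tested, while Atf4, Ddit3 and Sesn2 changed without them in these windows. The list was made of ATF4 and CHOP response genes, so a share above that of all windows is no independent support. Here too a match is not evidence of binding.

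Amino acid supply genes were higher in the same libraries. Of 8 tested amino acid transporter genes, 6 were higher, 1 was lower and 1 did not pass, with a median log2 change of 1.10. Slc7a3, Slc6a9 and Slc43a1 were below the count filter. Slc7a5, a carrier of large neutral amino acids, had 31.8, 27.1 and 27.3 CPM in MePipHCA cells, 6.45, 7.27 and 6.86 CPM in T0901317 cells and 4.98, 6.69 and 5.91 CPM in vehicle cells (log2 change 2.06 ± 0.16 (SE), adjusted p = 1.27e-13). Slc7a1, the arginine and lysine carrier, had 96.6, 92.7 and 83.01 CPM with MePipHCA and 21.3, 25.3 and 23.9 CPM with T0901317 (log2 change 1.94 ± 0.11 (SE), adjusted p = 2.62e-18). Slc7a11, the cystine importer, was placed differently against vehicle. It had 38.5, 38.2 and 42.2 CPM with MePipHCA, 17.9, 12.03 and 16.1 CPM with T0901317 and 32.8, 36.9 and 33.3 CPM with vehicle, so that T0901317 libraries lay below both other groups (log2 change 1.36 ± 0.12 (SE), adjusted p = 5.81e-12). The transporter that was lower was Slc1a5, a glutamine carrier, at -0.38 ± 0.11 (adjusted p = 0.0099), and 0 transporters were called lower without MePipHCA replicate 3. Enzymes that charge tRNA with amino acids in the cytosol were higher for 14 of 19 genes, with none lower and a median log2 change of 0.68. Cars, for cysteine, had 76.4, 90.3 and 82.4 CPM with MePipHCA and 44.4, 36.8 and 33.2 CPM with T0901317 (log2 change 1.16 ± 0.10 (SE), adjusted p = 2.42e-12). Aars, for alanine, and Sars, for serine, were each 2.01-fold higher, at 1.01 ± 0.07 and 1.00 ± 0.06. The 5 that did not pass were Vars, Farsb, Hars, Kars and Dars, whose log2 changes lay between 0.053 and 0.24.

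Synthesis of serine, one-carbon units and proline was higher for 5 of 9 tested genes, with none lower and a median of 0.43. Mthfd2, a mitochondrial folate enzyme gene, had 121, 123 and 118 CPM in MePipHCA cells, 16.4, 20.8 and 19.5 CPM in T0901317 cells and 11.995, 14.1 and 12.7 CPM in vehicle cells, 6.32-fold higher (log2 change 2.66 ± 0.11 (SE), adjusted p = 9.03e-23). Psat1, of serine synthesis, had 21.9, 26.2 and 27.4 CPM with MePipHCA and 9.42, 7.02 and 7.82 CPM with T0901317 (log2 change 1.66 ± 0.18 (SE), adjusted p = 7.02e-10), and Aldh18a1, of proline synthesis, was higher by 1.56 ± 0.15. The count of 5 fell to 3 without MePipHCA replicate 2, and Aldh1l2 was 1 of the calls lost (adjusted p = 0.0787; up to that value over all alternatives). Shmt1, Psph, Mthfd1 and Mthfd1l did not pass, and Phgdh, Pycr1, Cth and Cbs were below the filter. Chaperones and stress sensors of the endoplasmic reticulum formed the list with the largest share of higher genes. Of 22 genes, 21 were higher in MePipHCA cells, 5 by at least 2-fold, with a median log2 change of 0.66. Hspa5, the chaperone BiP, had 1781, 1837 and 1892 CPM with MePipHCA, 955, 877 and 989 CPM with T0901317 and 784, 701 and 738 CPM with vehicle (log2 change 0.96 ± 0.05 (SE), adjusted p = 1.63e-19). T0901317 libraries thus lay above vehicle libraries, and MePipHCA libraries above both. Dnajb9, a co-chaperone gene, had 81.9, 91.04 and 98.6 CPM with MePipHCA and 32.97, 32.8 and 36.4 CPM with T0901317 (log2 change 1.39 ± 0.10 (SE), adjusted p = 2.15e-15). Hyou1, Sdf2l1 and Manf were higher by 1.24 ± 0.06, 1.22 ± 0.09 and 1.18 ± 0.07 on the log2 scale. Xbp1, at 0.18 ± 0.07, did not pass the test in these gene-level counts, which do not separate its spliced form.

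**Figure D3:**
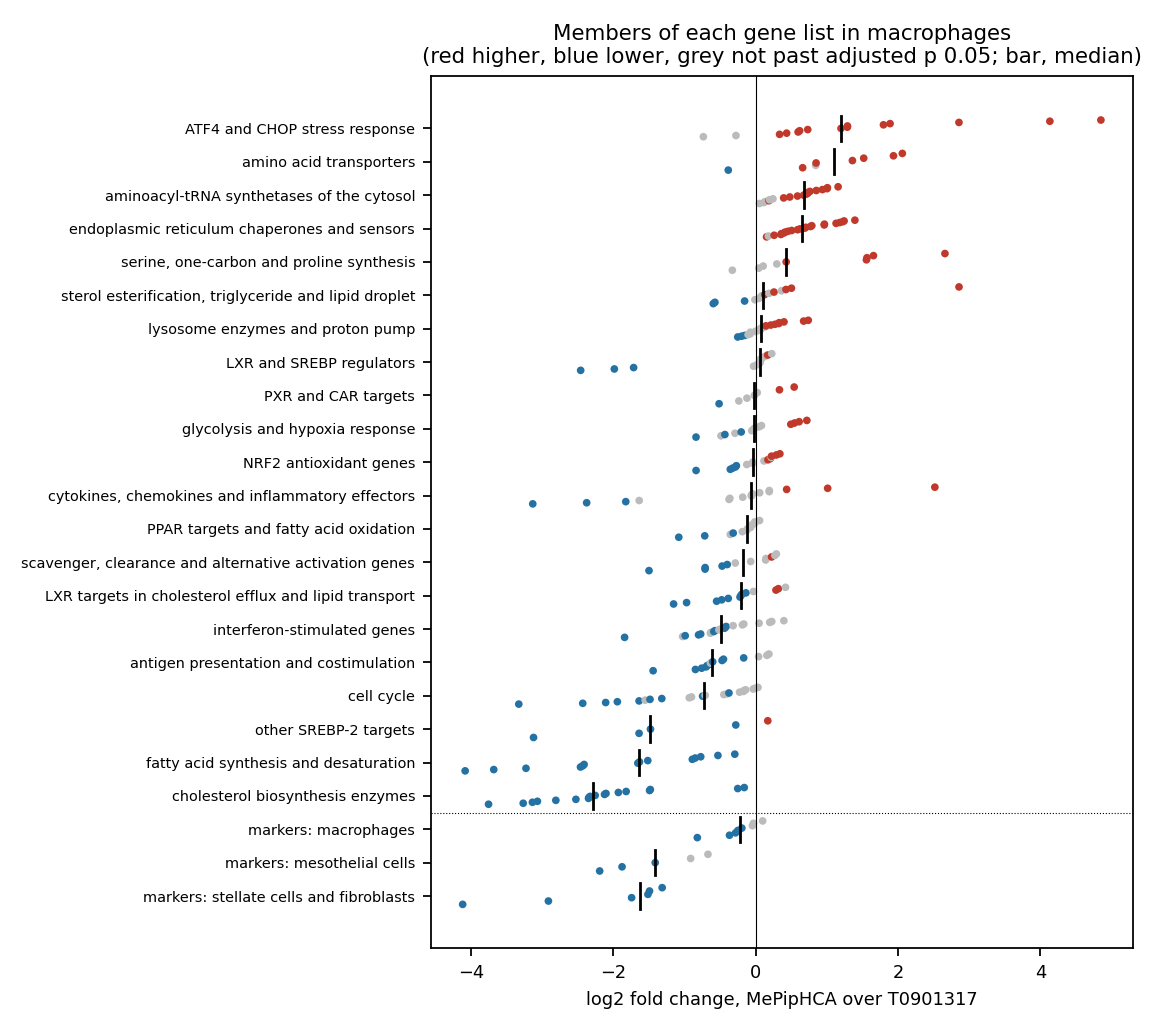
Log2 change of MePipHCA over T0901317 for each tested member of 21 pathway lists and 3 marker lists, ordered by the median (black bar). Red is higher, blue lower and grey not past adjusted p 0.05. All cholesterol and fatty acid synthesis genes lie left of 0, and the stress, amino acid and chaperone lists mostly right of it.

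Genes of sterol storage showed no common direction. Of 18 genes of the esterification, triglyceride and lipid droplet list, 14 were tested, 5 were higher, 3 were lower and 6 did not pass, with a median of 0.11. Soat2, which esterifies cholesterol, was the one with a large change. It had 6.06, 7.31 and 7.04 CPM in MePipHCA cells, 0.992, 1.002 and 0.869 CPM in T0901317 cells and 0.369, 0.4998 and 0.338 CPM in vehicle cells, 7.25-fold higher (log2 change 2.86 ± 0.41 (SE), adjusted p = 3.45e-07). These levels rest on 107 counts with MePipHCA and 18 with T0901317. Soat1, the other enzyme of this kind, differed by -0.01 ± 0.06 and did not pass. Lpin1, a phosphatidate phosphatase gene, was lower, with 77.5, 90.6 and 90.2 CPM with MePipHCA and 123, 127 and 138 CPM with T0901317 (log2 change -0.60 ± 0.07 (SE), adjusted p = 1.98e-09). Hilpda, a lipid droplet protein gene, was higher by 0.50 ± 0.11. The counts of this list are unsteady: without T0901317 replicate 3, 3 genes were higher, and without MePipHCA replicate 3, 1 was lower. The lysosomal list had 8 higher and 3 lower of 22 genes, with a median of 0.072. Ctsl, cathepsin L, had 8554, 8710.5 and 8686 CPM with MePipHCA, 5249, 5143 and 5154 CPM with T0901317 and 4265, 4073 and 4258 CPM with vehicle (log2 change 0.74 ± 0.05 (SE), adjusted p = 1.01e-16). Sqstm1, an autophagy receptor gene, was higher by 0.67 ± 0.05. NRF2 antioxidant genes were split, with 5 higher and 5 lower of 15 and a median of -0.04. Tkt, transketolase of the pentose phosphate pathway, had 277, 245 and 263 CPM with MePipHCA and 479, 463 and 461 CPM with T0901317 (log2 change -0.84 ± 0.05 (SE), adjusted p = 2.66e-16). Pgd, of the same pathway, and Hmox1, haem oxygenase, were lower by -0.32 ± 0.05 and -0.36 ± 0.05, while Srxn1 was higher by 0.34 ± 0.06. Of 15 glycolysis and hypoxia genes 14 were tested, and 4 were higher and 3 lower, with a median of -0.025. Hk2, hexokinase, had 145, 138 and 126 CPM with MePipHCA and 86.5, 74.9 and 84.9 CPM with T0901317 (log2 change 0.72 ± 0.07 (SE), adjusted p = 9.37e-11), and Slc2a1, the glucose carrier, was higher by 0.55 ± 0.08. PPAR targets and fatty acid oxidation genes had 3 lower and none higher of 13 tested among 14 listed (median -0.12). Ucp2, a mitochondrial carrier gene, was lower by -0.72 ± 0.05 and Angptl4, an inhibitor of lipoprotein lipase, by -1.08 ± 0.28. Of 11 PXR and CAR targets 7 were tested, and 2 were higher and 1 was lower (median -0.018). T0901317 is known to activate PXR as well, but a part of PXR in these differences was not tested. Abcc3, a conjugate exporter gene, was the lower one. It had 246, 242 and 233 CPM with MePipHCA, 335, 366 and 328 CPM with T0901317 and 90.2, 103 and 100.2 CPM with vehicle (log2 change -0.51 ± 0.06 (SE), adjusted p = 3.34e-09). The 2 higher genes were Abcb1a, at 0.54 ± 0.17 (adjusted p = 0.016), and Alas1, at 0.33 ± 0.06 (adjusted p = 1.1e-05). Abcb1a averaged 16.8 CPM with MePipHCA, 12.3 CPM with T0901317 and 10.4 CPM with vehicle. Alas1 averaged 186 CPM with MePipHCA, 149 CPM with T0901317 and 189 CPM with vehicle. Of the 2 higher genes 1 was called without MePipHCA replicate 1, and 1 without T0901317 replicate 3.

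Immune genes were lower with MePipHCA more often than higher. The shares over all genes tested were 13.9% lower and 12% higher. Of 14 antigen presentation genes, 10 were lower and none higher, with a median log2 change of -0.62. H2-K1, a class I heavy chain gene, had 616, 615 and 582 CPM in MePipHCA cells, 1103, 1116 and 1042 CPM in T0901317 cells and 890.1, 908 and 896 CPM in vehicle cells (log2 change -0.85 ± 0.05 (SE), adjusted p = 1.77e-18). MePipHCA libraries lay below vehicle and T0901317 libraries above it. H2 genes are near copies of one another, so their counts are uncertain where reads could be shared. H2-Aa, a class II chain gene, had 18.4, 23.3 and 17.6 CPM with MePipHCA and 38.7, 28.8 and 29.2 CPM with T0901317 (log2 change -0.70 ± 0.13 (SE), adjusted p = 4.18e-05), and Cd74, the class II invariant chain, was lower by -0.64 ± 0.08. B2m differed by 0.041 ± 0.07 and did not pass. Interferon-stimulated genes were lower for 9 of 21 tested among 23 listed, with none higher and a median of -0.49. Irf1, an interferon-induced transcription factor gene, had 27.9, 30.9 and 28.2 CPM with MePipHCA, 53.6, 47.9 and 47.7 CPM with T0901317 and 63.1, 63.2 and 60.5 CPM with vehicle (log2 change -0.77 ± 0.10 (SE), adjusted p = 8.16e-08). Stat2, which carries the interferon signal, was lower by -0.41 ± 0.10, while Rsad2 and Isg15, at 0.23 ± 0.10 and 0.40 ± 0.35, did not pass. Cytokines and chemokines had 3 higher and 3 lower of 16 tested among 24 listed, with a median of -0.059. Ccl2, which attracts monocytes, had 0.866, 0.708 and 0.587 CPM with MePipHCA, 6.94, 4.26 and 6.95 CPM with T0901317 and 4.798, 8.93 and 6.16 CPM with vehicle (log2 change -3.13 ± 0.41 (SE), adjusted p = 6.41e-08). Cxcl2, which attracts neutrophils, was higher, with 7.58, 4.01 and 3.67 CPM with MePipHCA and 0.992, 0.251 and 1.04 CPM with T0901317 (log2 change 2.52 ± 0.47 (SE), adjusted p = 5.18e-05). Tnf had 10.8, 9.198 and 8.65 CPM with MePipHCA, 4.46, 3.76 and 5.21 CPM with T0901317 and 9.78, 12.7 and 10.5 CPM with vehicle (log2 change 1.01 ± 0.24 (SE), adjusted p = 0.00105), so that MePipHCA was near vehicle and T0901317 below it. Ptgs2, the inducible cyclooxygenase gene, was lower by -1.82 ± 0.36. Scavenger, clearance and alternative activation genes had 5 lower and 1 higher of 12 tested among 16 listed (median -0.18). Clec7a, the receptor dectin-1, had 1241, 1261 and 1269 CPM with MePipHCA and 1803, 1625 and 1794 CPM with T0901317 (log2 change -0.47 ± 0.05 (SE), adjusted p = 3.92e-11). Gas6, a bridging ligand for dying cells, and Stab1, a scavenger receptor that overlaps Nt5dc2 on the opposite strand, were lower by -0.71 ± 0.09 and -0.71 ± 0.08. The higher gene was Cd36, at 0.22 ± 0.04, and 2 genes were called higher without MePipHCA replicate 3 or without T0901317 replicate 1. The macrophage markers given above were lower in the same libraries, 5 of 8 of them, and their part in the lower immune genes was not tested.

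Cell cycle genes had low counts and were lower with MePipHCA where called. Of 23 listed, 22 were tested, 9 were lower and none higher, with a median log2 change of -0.73, and 3 to 4 were lower under 3 of the alternatives (equal depth in all libraries, a stricter count filter and a fit of these 6 libraries alone). Mki67, a marker of cycling cells, had 3.46, 3.07 and 2.35 CPM in MePipHCA cells, 10.4, 14.8 and 9.64 CPM in T0901317 cells and 14.4, 16.1 and 16.4 CPM in vehicle cells (log2 change -1.94 ± 0.23 (SE), adjusted p = 7.87e-09). Top2a, topoisomerase, was lower by -1.32 ± 0.20 and Rrm2, ribonucleotide reductase, by -2.43 ± 0.59, on 6 counts with MePipHCA and 42 with T0901317. Stromal markers moved with them. All 6 tested fibroblast and stellate cell markers were lower in MePipHCA cells, each by at least 2-fold, with a median log2 change of -1.63, and the seventh, Pdgfrb, was below the count filter. Col1a2, a fibrillar collagen chain gene, had 37.9, 43.9 and 43.6 CPM with MePipHCA, 105, 141 and 111 CPM with T0901317 and 99.7, 137 and 109 CPM with vehicle (log2 change -1.49 ± 0.13 (SE), adjusted p = 2.5e-12). Acta2, smooth muscle actin, had 0.6497, 1.42 and 0.87997 CPM with MePipHCA, 14.1, 24.8 and 14.1 CPM with T0901317 and 15.7, 24.8 and 16.04 CPM with vehicle (log2 change -4.12 ± 0.35 (SE), adjusted p = 1.14e-12). In both genes vehicle and T0901317 libraries overlapped and MePipHCA stood low. Mesothelial markers were lower for 3 of 5 genes, with Wt1 at -1.88 ± 0.29. Their summed level was 7.78 to 9.83 CPM with MePipHCA, 21.3 to 27.02 CPM with T0901317 and 22.4 to 28.4 CPM with vehicle. Summed levels of 5 endothelial markers were 25.9 to 32.1 CPM with MePipHCA and 33.5 to 39.3 CPM with T0901317, and Stab2 alone was called, lower. The 4 neutrophil markers summed to 6.45 to 9.096 CPM with MePipHCA and 4.01 to 6.94 CPM with T0901317, and the 4 eosinophil markers to 8.88 to 11.9 CPM with MePipHCA and 4.76 to 9.67 CPM with T0901317. Each list had 1 tested gene, which did not pass. S100a9 and Mpo, and in the eosinophil list Epx, were at 0 under both ligands. No neutrophil or eosinophil marker was called, but 1 neutrophil marker was called higher without T0901317 replicate 1, and 1 eosinophil marker without MePipHCA replicate 1 and at equal depth in all libraries. Summed levels of the lymphocyte, mast cell and dendritic cell lists stayed under 4 CPM in every library of both ligands, no gene of the B cell, mast cell or dendritic cell lists passed the count filter, and Cd4, which macrophages can also express, was lower (0.249 CPM with MePipHCA and 2.095 CPM with T0901317 on average). Cd4 was not called in a fit of these 6 libraries alone, nor where at least 10 CPM in 3 libraries was required. The part of stromal and mesothelial RNA in the lower cell cycle and matrix genes was not tested.

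Outside the lists, the 12 genes with the largest reductions among those with a mean of at least 5 CPM and no overlap of libraries included Fscn1, Parva, Cdh2 and Kirrel. Fscn1, which bundles actin, had 1.73, 2.59 and 3.52 CPM in MePipHCA cells, 26.3, 38.8 and 31.5 CPM in T0901317 cells and 25.7, 38.7 and 27.4 CPM in vehicle cells (log2 change -3.55 ± 0.25 (SE), adjusted p = 2.82e-15). Parva, of focal adhesions, was lower by -3.14 ± 0.27, Cdh2, N-cadherin, by -3.09 ± 0.41, Kirrel, an adhesion molecule gene, by -3.35 ± 0.30 and Itga3, an integrin subunit gene, by -2.58 ± 0.33. Emp2, Phldb2 and Clca2 were lower by -2.54 ± 0.24, -2.59 ± 0.29 and -2.79 ± 0.22. In Clca2 the T0901317 libraries (22.6, 22.05 and 19.03 CPM) all lay below the vehicle libraries (26.5, 33.4 and 25.7 CPM). For the others of these genes, as for the stromal markers given above, the T0901317 libraries lay near vehicle. Smpd3, neutral sphingomyelinase, differed in this respect. It had 6.06, 4.48 and 5.72 CPM with MePipHCA, 56.03, 64.9 and 67.9 CPM with T0901317 and 22.7, 21.1 and 22.4 CPM with vehicle, 11.6-fold lower (log2 change -3.53 ± 0.13 (SE), adjusted p = 4.3e-24), with vehicle between the ligands. Aldoc, an aldolase gene, and Aldh1l1, a folate enzyme gene, were lower by -2.88 ± 0.27 and -2.84 ± 0.25, with T0901317 again near vehicle. The 12 genes with the largest increases by the same rule included Pck2, mitochondrial phosphoenolpyruvate carboxykinase, with 66.5, 62.97 and 66.7 CPM with MePipHCA, 16.9, 18.3 and 14.7 CPM with T0901317 and 18.2, 16.7 and 17.8 CPM with vehicle (log2 change 2.02 ± 0.11 (SE), adjusted p = 3.83e-18). Cdr2 was higher by 2.14 ± 0.24, Pdia5, a disulphide isomerase gene, by 1.78 ± 0.28, Ifrd1 by 1.40 ± 0.07 and Gmppb, which makes GDP-mannose and overlaps Rnf123 on the opposite strand, by 1.41 ± 0.14. In these genes too, T0901317 was near vehicle. Of the same 12, Rgs1, which ends G protein signals, had 249, 251 and 275 CPM with MePipHCA, 95.7, 77.2 and 100.4 CPM with T0901317 and 119, 102 and 105 CPM with vehicle (log2 change 1.48 ± 0.08 (SE), adjusted p = 2.14e-19). Ptgir, the prostacyclin receptor, Gna15, a G protein subunit, and Dusp1, a MAP kinase phosphatase, were higher by 1.60 ± 0.16, 1.61 ± 0.18 and 1.37 ± 0.10. Their T0901317 libraries all lay below the vehicle libraries, and their MePipHCA libraries all lay above. Ptgir averaged 31.7 CPM with MePipHCA, 10.4 CPM with T0901317 and 16.5 CPM with vehicle. Gna15 averaged 18.3 CPM with MePipHCA, 5.99 CPM with T0901317 and 9.46 CPM with vehicle. In Slc27a6, a fatty acid carrier of that family, and Galnt9, a glycosyltransferase gene, T0901317 lay farther from vehicle than MePipHCA did. Slc27a6 had 9.53, 9.91 and 10.9997 CPM with MePipHCA, 3.72, 4.01 and 2.61 CPM with T0901317 and 7.84, 6.25 and 7.51 CPM with vehicle (log2 change 1.68 ± 0.24 (SE), adjusted p = 4.77e-07). Galnt9 had 12.6, 8.49 and 10.1 CPM with MePipHCA, 2.23, 2.76 and 3.91 CPM with T0901317 and 11.4, 10.6 and 12.9 CPM with vehicle (log2 change 1.67 ± 0.22 (SE), adjusted p = 1.15e-07). MePipHCA libraries were near vehicle in Galnt9 and above it in Slc27a6.

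The position of vehicle cells was counted over all genes that differed by at least 2-fold. Of the 94 higher with MePipHCA, the vehicle mean lay between the ligands for 60, below both for 31 and above both for 3, and it was nearer T0901317 than MePipHCA on the log2 scale for 68. Of the 562 lower with MePipHCA, the vehicle mean lay between the ligands for 311, above both for 237 and below both for 14, and it was nearer T0901317 for 523. These are counts of means, given without a test. Levels in the other macrophage groups are given for single genes, without a test. Cyp51 averaged 19.7 ± 2.83 CPM with MePipHCA, 41.8 ± 5.48 with DMHCA, 45.04 ± 6.24 with desmosterol, 191 ± 10.9 with GW3965, 187 ± 4.49 with T0901317 and 192 ± 3.91 with vehicle (SD, n = 3 each). Trib3 averaged 56.9 ± 3.14 CPM with MePipHCA, 5.61 ± 0.601 with DMHCA, 6.21 ± 0.601 with desmosterol, 5.09 ± 1.13 with GW3965, 2.94 ± 0.804 with T0901317 and 4.33 ± 0.7103 with vehicle (SD, n = 3 each). For Cyp51 DMHCA and desmosterol stood between MePipHCA and T0901317, whereas for Trib3 all groups other than MePipHCA were below 10 CPM. Srebf1 averaged 128 ± 4.28 CPM with MePipHCA, 199.9 ± 3.96 with DMHCA, 95.5 ± 5.89 with desmosterol (at the higher dose), 416 ± 9.62 with GW3965 and 420.4 ± 27.5 with T0901317 (SD, n = 3 each), so that GW3965 and T0901317 overlapped. Fasn averaged 113 ± 8.399 CPM with MePipHCA, 101 ± 11.2 with DMHCA, 48.2 ± 4.89 with desmosterol, 690 ± 2.25 with GW3965, 620.00 ± 14.5 with T0901317 and 113 ± 10.8 with vehicle (SD, n = 3 each). Among the ligands, desmosterol had the lowest mean for Fasn, as for Srebf1.

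The same ligands at the same dose were also given to primary mouse hepatocytes, with 2 libraries each, in Hepatozyme with 10% serum. The hepatocytes had the same length of pretreatment as the macrophages, with mevastatin and mevalonate at the same concentrations. Their exposure time was also the same. There, 1417 of 13700 genes differed between MePipHCA and T0901317 (10.3%), 722 higher and 695 lower, in a fit of all 30 libraries. The difference between the ligands itself differed between the cell types for 1399 genes (10.2%), 678 more positive and 721 more negative in macrophages. Cell type is confounded with medium and with the date in the sample titles, so these cannot be told apart. The exporters, nearly equal in macrophages, were not equal in hepatocytes. Abca1 averaged 84.5 CPM with MePipHCA and 772 CPM with T0901317 in hepatocytes, a log2 change of -3.19 ± 0.08 (adjusted p = 3.83e-30). The macrophage change was more positive by 3.06 ± 0.10 (adjusted p = 6.02e-26). Abcg1 averaged 0.167 CPM with MePipHCA and 5.74 CPM with T0901317 there, and the cell types differed by 4.83 ± 0.32 (adjusted p = 2.41e-15). Srebf1 was lower with MePipHCA in both cell types, at -1.48 ± 0.09 in hepatocytes, and the difference between the cell types of -0.23 ± 0.12 did not pass the test (adjusted p = 0.247). Scd1 was lower by -2.63 ± 0.08 in hepatocytes, and the macrophage change was more negative by -1.05 ± 0.11 (adjusted p = 2.97e-09). Cholesterol synthesis enzymes were lower with MePipHCA for 16 of 18 genes in hepatocytes, with a median log2 change of -0.68. The test of the difference between the cell types passed with the macrophage change the more negative for 16 of the 18 and the more positive for 1. Cyp51 averaged 258 CPM with MePipHCA and 369 CPM with T0901317 in hepatocytes (-0.51 ± 0.09), a difference between the cell types of -2.75 ± 0.14 (adjusted p = 3.62e-19). Stard4 was lower by -0.57 ± 0.14 in hepatocytes (adjusted p = 0.00531) and differed between the cell types by -2.55 ± 0.24 (adjusted p = 7.66e-11). Its hepatocyte call was lost at equal depth (adjusted p = 0.136) and without hepatocyte MePipHCA replicate 2 (adjusted p = 0.0709), the range over all alternatives in edgeR and DESeq2 being 0.00165 to 0.136. None of the 17 ATF4 and CHOP genes tested was called in hepatocytes, in either direction, and 10 of them were more positive in macrophages. For Ddit3, at 0.41 ± 0.15 in hepatocytes (adjusted p = 0.0773), the absence of a call depended on the setting. It was called higher with MePipHCA under the replicate block (adjusted p = 0.0258), with no count filter (0.0114), without hepatocyte MePipHCA replicate 2 (0.00248) and without hepatocyte T0901317 replicate 1 (0.0134), in a range of 0.00248 to 0.959 over all alternatives in edgeR and DESeq2. Trib3 averaged 92.5 CPM with MePipHCA and 80.9 CPM with T0901317 in hepatocytes (0.19 ± 0.12, adjusted p = 0.36), and the cell types differed by 3.94 ± 0.23 (adjusted p = 1.99e-17). Asns averaged 166 CPM with MePipHCA and 152 CPM with T0901317 there, with a difference between the cell types of 2.73 ± 0.20 (adjusted p = 8.37e-14).

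**Figure D4:**
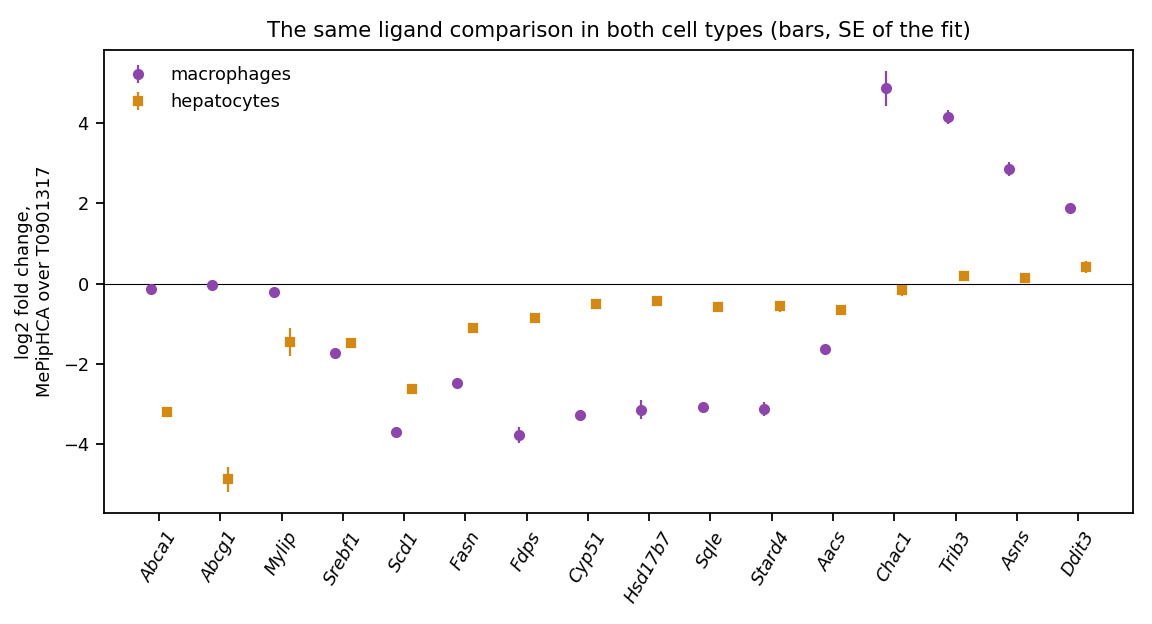
Log2 change of MePipHCA over T0901317 in macrophages (circles, 3 libraries per ligand) and hepatocytes (squares, 2 per ligand) for 16 genes, with the SE of the fit as bars. Abca1 and Abcg1 are near 0 in macrophages and below -3 in hepatocytes, and cholesterol genes and the 4 stress genes at the right change far more in macrophages.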

How the data were processed

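RNA from mouse macrophages and hepatocytes was sequenced as polyadenylated RNA. The submitters' processing notes name STAR, HOMER and the build mm10, with no role, and versions are not given in the sources used here. The deposited tables hold raw counts over the exons of 1 transcript per gene, not normalized and with no strand option named, per the file headers. The authors' RPKM tables were not used.

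Counts were fitted with edgeR 4.0.16 in R 4.3.3: filterByExpr on the groups, TMM scaling and a quasi-likelihood model with 1 mean for each of the 6 macrophage groups (18 libraries, 11544 genes, 12 residual degrees of freedom, coefficient of biological variation 0.0554). MePipHCA was tested against T0901317, with Benjamini-Hochberg adjustment and a threshold of 0.05. For the comparison with hepatocytes, tables were joined by gene symbol and all 30 libraries of 12 groups were fitted together (13700 genes, 18 residual degrees of freedom). The script was tested on simulated data. Intervals of fold changes include the spread between replicates. Libraries of 1 group differed by more than sampling noise, so all were counted.

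Named genes were Abca1, Abcg1, Mylip, Srebf1, Scd1 and Fasn, up to 4 called members with the largest change in each of 21 pathway lists, and 12 higher and 12 lower genes outside the lists with no overlap of libraries and a mean of at least 5 CPM, leaving out predicted genes and clones. Other list members are named as examples chosen after their values were seen. The comparison, the lists and 10 marker lists were chosen with earlier results of these data known. Some members of these lists are not reported here and enter no count or median of a list. Alternatives were other scalings and filters, DESeq2 1.42.0, a fit of these libraries alone, equal depth, a replicate block, a 2-fold minimum and leaving out each library.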

Additional observations from a re-analysis of the deposited data

Results flagged for a closer look

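A difference between the cell types was flagged where the interaction of ligand and cell type passed an adjusted p of 0.05 in edgeR among the genes compared in both. The values are macrophage minus hepatocyte changes of MePipHCA over T0901317 on the log2 scale. More positive in macrophages were Abca1 (3.06 ± 0.10), Abcg1 (4.83 ± 0.32), Mylip (1.24 ± 0.36), Chac1 (5.05 ± 0.40), Trib3 (3.94 ± 0.23), Asns (2.73 ± 0.20) and Ddit3 (1.48 ± 0.20). More negative were Scd1 (-1.05 ± 0.11), Fasn (-1.35 ± 0.11), Fdps (-2.90 ± 0.25), Cyp51 (-2.75 ± 0.14), Hsd17b7 (-2.69 ± 0.27), Sqle (-2.48 ± 0.14), Stard4 (-2.55 ± 0.24), Tmem97 (-1.18 ± 0.21) and Aacs (-0.98 ± 0.15). Errors are SE of the fit. The Mylip difference was not called without hepatocyte MePipHCA replicate 1 (0.72, adjusted p = 0.252) or T0901317 replicate 2 (0.59, adjusted p = 0.497), nor at equal depth (adjusted p = 0.278, in a range up to 0.497 over all alternatives).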

How the results depend on the processing

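The macrophage counts of 1390 higher and 1605 lower genes and the 1399 genes that differed between the cell types stayed within 1.5 times under every alternative tried but 1. Asking for at least 2-fold gave 94, 562 and 527. DESeq2 called 1231, 1492 and 1457, and equal depth in all libraries gave 1189, 1436 and 1023. Leaving out 1 library at a time gave 1164 to 1250 higher, 1232 to 1443 lower and 984 to 1289 between cell types. No macrophage call was made in the opposite direction under the other settings. Of 109 genes chosen by the naming rule, 11 lost their call under some alternative other than the 2-fold one (Abca1, Ncor1, Rdh11, Gpam, Aldh1l2, Cxcl10, Rtp4, Ifit2, Usp18, Ciita and Abcb1a) and 0 reversed. The Rdh11 difference between the cell types, 0.00909 on the log2 scale and not called, came to -0.0136 with DESeq2's size factors, -0.0235 with library totals alone, -0.00879 with no count filter, -0.0134 in DESeq2 and -0.0139 at equal depth, and to -0.1345 to 0.1327 with 1 library left out. Over all genes tested, MePipHCA and T0901317 libraries of the same replicate number hardly deviated together (correlations of -0.0213, 0.0113 and 0.0469 for numbers 1 to 3). The numbers were not taken as pairs, but such a correlation over all genes cannot exclude a shared preparation. In Acta2 and Col1a2, replicate 2 was highest with MePipHCA, T0901317 and vehicle, and in Fscn1 with T0901317 and vehicle only. A fit with the replicate block gave 1404, 1626 and 1383. Library totals were 4.01 to 11.45 M counts. The cell cycle count of 9 lower genes became 3 at equal depth, 4 at a minimum of 10 CPM in 3 libraries and 4 with these 6 libraries alone.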
